A study of Mus musculus with 10 samples.

Results

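Ppara, Ppargc1a, Esrra, Rxra, Hnf4a, Pax8 and Pax2 are 7 mouse genes for transcription regulators that set the metabolism and the identity of the kidney tubule. They were taken by symbol from a bulk RNA table that held 33714 genes after transcripts were summed per gene, and from 2 single-cell tables with 15340 and 13217 genes. All 7 were found in each table, and all 7 passed the filter on low counts in the bulk table, where 17616 genes were tested. With 3 injury arms averaged, Hnf4a, Ppara, Esrra, Rxra and Ppargc1a were lower in injured than in opposite kidneys, while Pax8 and Pax2 did not pass the test. Of all genes tested there, 73.7% were called and 34.7% were lower, so the calls alone set no gene apart. Within single arms Ppargc1a passed in the wild-type arm only, and Hnf4a and Ppara did not pass in the arm labelled Ihh-deleted. Scaled to library totals alone, Ppargc1a was not called, while Pax8 and Pax2 were called higher, Pax8 in other settings too. In the injured kidneys of the arm labelled Ihh-deleted the first 5 were higher than the mean of the injured kidneys of the other arms, in a comparison where 37.1% of all genes were called and 20.5% were higher. Against the transgenic arm without tamoxifen alone, where 16.4% of all genes were called, Ppara and Hnf4a passed and the others did not.

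The study followed mouse kidneys 2 weeks after the artery of one kidney was tied for 15 minutes, and asked what the loss of Indian hedgehog (Ihh, a secreted ligand) from tubule cells changes. All mice were 8 weeks old. The injury arms were wild-type C57/BL6 mice given tamoxifen (WT.TAM), Pax8creERT2;Ihhfl/fl mice not given tamoxifen (TG.VEH), and Pax8creERT2;Ihhfl/fl mice given tamoxifen (TG.TAM, labelled Ihh-deleted). For each arm the injured and the contralateral kidney form a group of their own, and the 2 further bulk groups were C57/BL6 kidneys opposite a nephrectomy and C57/BL6 uninjured kidneys. Each of the 8 groups had 4 numbered libraries. The single-cell samples were 1 injured and 1 uninjured C57/BL6 kidney, sorted for live cells with DAPI. In the transgenic mice the recombinase is expressed from Pax8, one of the 7 genes, so it is active where Pax8 is, in tubule epithelium, and only tamoxifen takes it into the nucleus. Whether the recombinase cassette replaces a copy of Pax8 is not given in the sources used here. Tamoxifen was given in the WT.TAM and TG.TAM arms and not in the TG.VEH arm, so the 2 arms with intact Ihh differ from each other in strain and in tamoxifen.

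PPAR alpha (Ppara) is a nuclear receptor that switches on fatty acid oxidation when it binds fatty acids, and it acts as a pair with retinoid X receptor alpha (Rxra). PGC-1 alpha (Ppargc1a) is a coactivator of both, and with the orphan receptor ERR alpha (Esrra) it drives genes of the citric acid cycle and the respiratory chain. HNF4 alpha (Hnf4a) is a nuclear receptor that keeps the proximal tubule differentiated. Pax8 and Pax2 are paired-box factors that specify the nephron in the embryo and that stay expressed along the tubule in the adult. Proximal tubule cells burn mainly fatty acids and are rich in mitochondria, so the first 5 genes are commonly read together there.

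On the GRCm38 build Pax8 (ENSMUSG00000026976) lies on chromosome 2 from 24420560 to 24475599 on the minus strand. Rxra (ENSMUSG00000015846) lies on chromosome 2 from 27676440 to 27762957 and Hnf4a (ENSMUSG00000017950) on chromosome 2 from 163506808 to 163572910, both on the plus strand. Ppargc1a (ENSMUSG00000029167) lies on chromosome 5 from 51454250 to 51567726 on the minus strand, and Ppara (ENSMUSG00000022383) on chromosome 15 from 85734983 to 85802819 on the plus strand. Esrra (ENSMUSG00000024955) lies on chromosome 19 from 6910977 to 6921813 on the minus strand, and Pax2 (ENSMUSG00000004231) on chromosome 19 from 44756045 to 44837871 on the plus strand.

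Of the 32 bulk libraries, 3 carried a heart profile, 2 of the uninjured group and 1 of the nephrectomy group. The tests used the 29 others, except where all 32 are named. That left 2 uninjured libraries, 1 of them with 0.593 M counts, and 3 nephrectomy libraries, 1 of which held 673 CPM (counts scaled to a library total of 1 M) over 10 heart genes against 11.1 and 14 in the others. The 29 libraries held 0.593 M to 37.98 M counts, with a median of 23.6 M. The deepest, library 2 of the contralateral TG.VEH group, had Lrp2, the megalin receptor of the proximal tubule, at 2434 CPM, where the other contralateral libraries of that arm had 8856 to 10220. Ihh RNA was still present in injured TG.TAM kidneys, at 4.57 to 6.08 CPM, against 5.97 to 11.8 in WT.TAM, whose lowest library overlapped, and 6.87 to 15.3 in TG.VEH, all above. Contralateral TG.TAM kidneys had 3.44 to 17.2. All 12 proximal tubule marker genes were detected in every one of the 29 libraries. Nothing in the labels says that the libraries of a group came from separate animals, so p-values measure the spread between these libraries only.

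The sequences upstream of 2 Hnf4a starts are shown because nearly all Hnf4a counts come from one of them, those of Ppargc1a and Rxra because each precedes an annotated start that held few counts. They are 150 bases each from the RefSeq promoter table of GRCm38.p6, 5′ to 3′ on the strand of the gene, and capitals mark matches to the motifs searched.

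Hnf4a, downstream start (P1), chr2:163547005-163547154, plus strand: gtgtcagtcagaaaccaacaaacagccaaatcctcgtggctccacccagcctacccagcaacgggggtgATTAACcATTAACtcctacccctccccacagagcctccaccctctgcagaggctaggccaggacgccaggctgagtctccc
Hnf4a, upstream start (P2), chr2:163506707-163506856, plus strand: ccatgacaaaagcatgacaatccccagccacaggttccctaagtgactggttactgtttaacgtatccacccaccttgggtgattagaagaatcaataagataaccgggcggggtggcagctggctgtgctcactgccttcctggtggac
Ppargc1a, upstream start, chr5:51567726-51567875, minus strand: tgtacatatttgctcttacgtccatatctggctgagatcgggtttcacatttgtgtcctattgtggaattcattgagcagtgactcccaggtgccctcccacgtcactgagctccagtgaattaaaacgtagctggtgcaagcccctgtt
Rxra, second start, chr2:27709142-27709291, plus strand: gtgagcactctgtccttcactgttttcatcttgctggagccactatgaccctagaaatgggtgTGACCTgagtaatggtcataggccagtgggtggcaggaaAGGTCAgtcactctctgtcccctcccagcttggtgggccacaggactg

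All 7 genes were matched in the RefSeq table, with 11 start sites, and 6 motifs were searched on both strands in the 250 bases upstream of each. The start of the leading Ppargc1a transcript, at 51553922, was not among the 11, so the sequence upstream of it was not searched. The Hnf4a P1 sequence held the motif GTTAAT 2 times on the opposite strand, read as ATTAAC at -81 to -76 and at -74 to -69 from the start; 6.43% of 32851 mouse promoters of that length hold this motif. The Rxra second start held the receptor element AGGTCA at -48 to -43 and its complement TGACCT at -87 to -82, a motif that 14% of promoters hold. The receptor pair site DR1, a direct repeat of AGGTCA with 1 base between (0.0335% of promoters), the ERR element TCAAGGTCA (0.387%, which like DR1 contains AGGTCA), the HNF4 core CAAAGTCCA (0.384%) and the E-box CACGTG (6.02%) matched in none of the 11. Starts within 1000 bases of P1 carried 99.65% of Hnf4a counts and those near P2 0.0068%. Transcripts from the upstream Ppargc1a start carried 1.32% of its counts, and those from the second Rxra start 0.0826%.

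Per length, Hnf4a was the most abundant of the 7 in contralateral kidneys, at 527 ± 53.0 TPM (counts per transcript length, scaled to a fixed total; mean ± SD, n = 12). Esrra followed at 105 ± 13.7, Rxra at 99.8 ± 14.8, Pax8 at 97.0 ± 17.9 and Ppara at 93.4 ± 23.7 TPM, 4 genes whose ranges overlapped. Ppargc1a stood at 58.6 ± 10.3 and Pax2 at 22.3 ± 7.69 TPM. For each gene the 8 groups were also put in order of their mean CPM per library total. Of the 49 pairs of neighbours in these orders, all but 2 had ranges that overlapped. The exceptions were Ppargc1a, higher in uninjured kidneys than in injured WT.TAM kidneys, and Hnf4a, higher in uninjured than in nephrectomy kidneys. For Ppargc1a the ranges all but touched, at 109.57 CPM in uninjured library 2 and 109.56 in injured WT.TAM library 3. The first of these values rests on 65 counts.

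Hnf4a, which keeps proximal tubule cells differentiated, fell in injured kidneys. CPM scaled with TMM factors (edgeR's correction for composition) is used from here on, unless stated otherwise. In contralateral kidneys Hnf4a held 1028, 1120, 1122 and 1016 CPM in WT.TAM, 1079, 1282, 976 and 1002 in TG.VEH, and 1123, 1058, 1195 and 1130 in TG.TAM. In injured kidneys it held 177, 146, 359 and 427 CPM in WT.TAM, 468, 262, 489 and 148 in TG.VEH, and 685, 669, 1058 and 429 in TG.TAM. Of the 12 injured libraries, 11 lay below every contralateral library, and the exception was library 3 of TG.TAM. The log2 fold change over the 3 arms was -1.43 (SE 0.18, adjusted p = 1.88e-07). With the 3 heart-profile libraries kept in the fit it was -1.41 and not called (adjusted p = 0.0997). Per library total those libraries held 0.237 to 0.732 CPM of Hnf4a, against 1014 to 1246 in the other uninjured and nephrectomy libraries. All groups share the estimate of spread, so these libraries enter it in every comparison with all 32 libraries.

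Ppara, the fatty acid sensing receptor, fell with it. Contralateral kidneys held 101, 164, 158 and 95.1 CPM of Ppara in WT.TAM, 117, 80.3, 98.9 and 130 in TG.VEH, and 172, 101, 132 and 109 in TG.TAM. Injured kidneys held 18.8, 16.1, 41.0 and 39.25 CPM in WT.TAM, 52.6, 33.2, 60.4 and 22.4 in TG.VEH, and 75.6, 96.1, 132 and 54.4 in TG.TAM. The ranges overlapped through libraries 2 and 3 of injured TG.TAM, and the other 10 injured libraries lay below the lowest contralateral one. The log2 fold change of Ppara was -1.34 (SE 0.18, adjusted p = 5.29e-07).

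Ppargc1a, the coactivator of mitochondrial genes, moved less. Contralateral kidneys held 110 to 179 CPM of Ppargc1a with a median of 149.1. Injured WT.TAM kidneys held 62.4, 54.5, 89.5 and 89.7 CPM, all below that range. Injured TG.VEH kidneys held 87.1, 141, 154 and 105 CPM and injured TG.TAM kidneys 137, 136, 175 and 119, most of them within it. The log2 fold change of Ppargc1a was -0.46 (SE 0.10, adjusted p = 0.000227), and with scaling to library totals alone it was -0.11 (adjusted p = 0.314).

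Esrra, the receptor that works with PGC-1 alpha, ran from 85.4 to 133 CPM (median 105) in contralateral and from 32.5 to 91.3 (median 49.2) in injured kidneys. Rxra, the partner of PPAR alpha, ran from 190 to 233 CPM (median 215) in contralateral and from 79.1 to 194 (median 110) in injured kidneys. For both genes 11 of 12 injured libraries lay below every contralateral one, and again library 3 of TG.TAM was the exception. The log2 fold change was -0.99 (SE 0.10, adjusted p = 1.42e-08) for Esrra and -0.89 (SE 0.09, adjusted p = 5.58e-09) for Rxra.

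Pax8 and Pax2, the nephron-specifying factors, did not follow. Injured kidneys held 107, 92.4, 162 and 105 CPM of Pax8 in WT.TAM, 93.6, 111, 120 and 86.3 in TG.VEH, and 143, 132, 101 and 110 in TG.TAM. Contralateral kidneys held 84.8 to 124 CPM of Pax8 with a median of 102, a range that covers 9 of the 12 injured libraries. Pax2 ran from 22.4 to 63.6 CPM (median 33.5) in injured and from 13.4 to 54.1 (median 31.1) in contralateral kidneys, and 1 injured library, number 3 of WT.TAM, lay above that range. The log2 fold change was 0.17 for Pax8 (SE 0.09, adjusted p = 0.112) and 0.20 for Pax2 (SE 0.16, adjusted p = 0.271). Both depended on the scaling: with library totals alone they were 0.52 (adjusted p = 7.19e-05) and 0.54 (adjusted p = 0.00719), and with edgeR's RLE factors Pax8 was 0.25 (adjusted p = 0.0207). By the DESeq2 Wald test Pax8 was also called, at 0.25 (adjusted p = 0.0165).

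Of the 7 genes, 5 were therefore called in injured against contralateral kidneys, where 73.7% of all 17616 genes were called, 39.0% of them higher and 34.7% lower as a share of all tested. At that background a call by itself sets no gene apart. Of all tested genes 3.66% had a lower fold change than Hnf4a, 4.51% than Ppara, 9.45% than Esrra, 11.1% than Rxra and 23.7% than Ppargc1a. The scaling also moved the whole table: the median log2 fold change of all genes was 0.05 with TMM factors and 0.42 with library totals, and the calls split into 6874 higher and 6114 lower in the first case and 10463 and 3377 in the second.

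**Figure D1:**
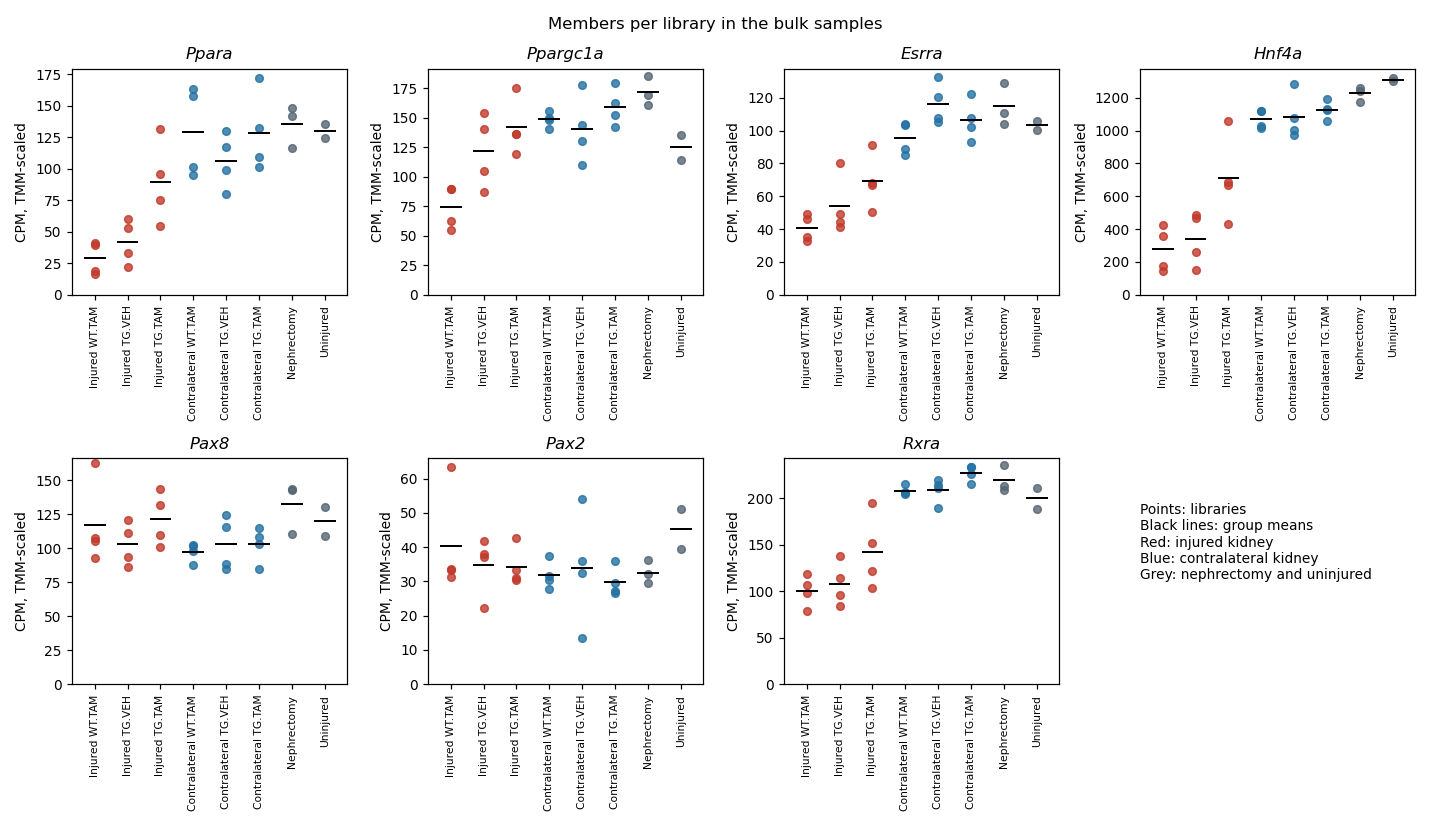
TMM-scaled CPM (vertical axes) of the 7 genes in each of the 29 kidney libraries, by group (horizontal axis); points are libraries and black lines are group means. Hnf4a, Ppara, Esrra and Rxra sit lower in the 3 injured groups, lowest in WT.TAM, while Pax8 and Pax2 overlap between groups.

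Markers of cell types moved with the same groups. The summed CPM (per library total) of the 12 proximal tubule markers was 4872 to 28710 in injured kidneys, with a median of 14050, and 27400 to 33460 in contralateral ones. All 12 of these markers fell (median log2 fold change -1.64). The 8 fibroblast and mural markers all rose, with sums of 356 to 4351 CPM against 246 to 425 in contralateral kidneys. The 7 macrophage markers all rose too, with sums of 141 to 1046 CPM against 84.4 to 179. T and NK cell markers, 8 of 9 called higher, summed to 13.6 to 230 CPM against 4.39 to 11.6, and B cell markers, 4 of 4 called higher, to 4.95 to 335 CPM against 2.71 to 6.55. Thick ascending limb sums had medians of 5425 CPM in injured and 6979 in contralateral kidneys, and distal convoluted tubule sums 1705 and 3131. Medians were 614 and 321 for podocyte, 360 and 288 for principal and 203 and 171 for intercalated markers. For each of these lists the ranges overlapped. In whole-kidney RNA fewer cells of a type and less RNA per cell cannot be told apart, and the part of cell makeup in the falls of Hnf4a, Ppara, Esrra, Rxra and Ppargc1a was not tested.

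Within arms, the falls were deepest in WT.TAM, where 60.7% of genes were called. There the log2 fold change of injured against contralateral kidneys was -2.17 for Ppara (SE 0.33, adjusted p = 7.17e-06), -1.95 for Hnf4a (SE 0.32), -1.23 for Esrra (SE 0.18), -1.05 for Rxra (SE 0.15) and -1.01 for Ppargc1a (SE 0.17), all called. In TG.VEH, with 63.7% of genes called, Hnf4a (-1.67, SE 0.32), Ppara (-1.34, SE 0.32), Esrra (-1.12, SE 0.18) and Rxra (-0.96, SE 0.15) fell, while Ppargc1a was at -0.21 (SE 0.17, adjusted p = 0.294). In TG.TAM, with 33.8% of genes called, Rxra (-0.67, SE 0.15, adjusted p = 0.00229) and Esrra (-0.62, SE 0.18, adjusted p = 0.0118) fell. Hnf4a at -0.67 (SE 0.31, adjusted p = 0.0957), Ppara at -0.52 (SE 0.31, adjusted p = 0.195) and Ppargc1a at -0.17 (SE 0.17, adjusted p = 0.468) did not pass there. Single TG.TAM libraries decided 2 of these calls: without library 4 Esrra was at -0.49 (adjusted p = 0.0624), and without library 3 Hnf4a was at -0.92 (adjusted p = 0.0279). With all 32 libraries Hnf4a was not called in WT.TAM (-1.93, adjusted p = 0.234) or TG.VEH (-1.64, adjusted p = 0.303). Pax8 and Pax2 passed in no arm, with log2 fold changes from -0.01 to 0.34. With library totals Pax8 was called in WT.TAM (0.70, adjusted p = 0.00157) and TG.VEH (0.43, adjusted p = 0.0353), and Pax2 in WT.TAM (0.77, adjusted p = 0.0286).

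Injured kidneys were then compared directly. Against the mean of WT.TAM and TG.VEH, injured TG.TAM kidneys had higher Ppara (log2 difference 1.36, SE 0.26, adjusted p = 0.000713), Hnf4a (1.21, SE 0.26, adjusted p = 0.00145), Ppargc1a (0.58, SE 0.15, adjusted p = 0.00434), Esrra (0.56, SE 0.15, adjusted p = 0.00656) and Rxra (0.46, SE 0.13, adjusted p = 0.00886). That is 5 of 7, where 37.1% of all genes were called, 20.5% higher and 16.6% lower. Pax8, the gene that drives the recombinase, differed by 0.15 (SE 0.14, adjusted p = 0.418) and Pax2 by -0.13 (SE 0.24, adjusted p = 0.701). For Hnf4a the lowest injured TG.TAM library, at 429 CPM, lay above all 4 of WT.TAM and 2 of 4 of TG.VEH. Without TG.TAM library 3 the difference was 0.40 for Esrra (adjusted p = 0.0730) and 0.27 for Rxra (adjusted p = 0.122), and with library totals it was 0.33 for Ppargc1a (adjusted p = 0.0763) and 0.20 for Rxra (adjusted p = 0.122). With all 32 libraries Hnf4a (adjusted p = 0.464), Ppargc1a (adjusted p = 0.128) and Rxra (adjusted p = 0.0906) were not called.

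Split by control arm, the 5 genes were called against WT.TAM (38.6% of genes called): Ppara at 1.64, Hnf4a at 1.36, Ppargc1a at 0.94, Esrra at 0.76 and Rxra at 0.51, with adjusted p from 0.000508 to 0.0116. Rxra was not called there without TG.TAM library 3 (0.32, adjusted p = 0.0948) or WT.TAM library 2 (0.41, adjusted p = 0.0581), nor with library totals (0.23, adjusted p = 0.136). With all 32 libraries Hnf4a was at 1.35 (adjusted p = 0.498) and Rxra at 0.50 (adjusted p = 0.103). Against TG.VEH, which shares the strain but not the tamoxifen, 16.4% of genes were called, among them Ppara (1.09, SE 0.32, adjusted p = 0.0253) and Hnf4a (1.05, SE 0.31, adjusted p = 0.0266). With all 32 libraries neither was called (adjusted p = 0.122 and 0.700), and each was lost without TG.TAM library 2 or 3 or TG.VEH library 2 or 4, and without TG.TAM library 3 Ppara was at 0.84 (adjusted p = 0.137). Rxra at 0.40 (adjusted p = 0.0669), Esrra at 0.36 (adjusted p = 0.157) and Ppargc1a at 0.22 (adjusted p = 0.380) did not pass. Without TG.TAM library 4 Rxra (0.53, adjusted p = 0.0113) and Esrra (0.49, adjusted p = 0.0452) were called, and so they were without TG.VEH library 3 (0.54, adjusted p = 0.0147, and 0.62, adjusted p = 0.00973). These comparisons share the 4 injured TG.TAM libraries.

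The difference between the injury responses themselves was tested as an interaction, TG.TAM minus the mean of the other arms. Ppara at 1.23 (SE 0.38, adjusted p = 0.0334) and Hnf4a at 1.14 (SE 0.38, adjusted p = 0.0425) passed, in a contrast where 16.1% of genes were called, 10.4% higher and 5.74% lower. Esrra at 0.55 (adjusted p = 0.0815), Ppargc1a at 0.44 (adjusted p = 0.143), Rxra at 0.33 (adjusted p = 0.208), Pax8 at 0.11 (adjusted p = 0.714) and Pax2 at 0.01 (adjusted p = 0.992) did not. Esrra was called without TG.TAM library 4 (0.68, adjusted p = 0.0246) or TG.VEH library 3 (0.68, adjusted p = 0.0125). The Ppara call was lost in 9 of the other settings and the Hnf4a call in 20. With 1 library left out at a time, Ppara was called in 18 of 24 fits and Hnf4a in 9 of 24. Neither was called with all 32 libraries (adjusted p = 0.1035 and 0.734) or with library totals (adjusted p = 0.0564 and 0.0653). Hnf4a was also not called with the injury arms alone (adjusted p = 0.0610). Without TG.TAM library 3 alone, Ppara was at 0.98 (adjusted p = 0.117) and Hnf4a at 0.88 (adjusted p = 0.145). The proximal tubule markers of that arm moved the same way, with sums of 14040 to 28710 CPM in injured TG.TAM against 4872 to 14500 in WT.TAM and 5609 to 17610 in TG.VEH. Fibroblast and mural sums were 356 to 956 CPM in injured TG.TAM, 1354 to 3933 in WT.TAM and 1189 to 4351 in TG.VEH, and macrophage sums 141 to 451, 512 to 1046 and 343 to 986 CPM. Podocyte sums were 310 to 547, 568 to 1044 and 428 to 1184 CPM in the same order. The part of cell makeup in the differences of Ppara and Hnf4a was not tested.

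**Figure D2:**
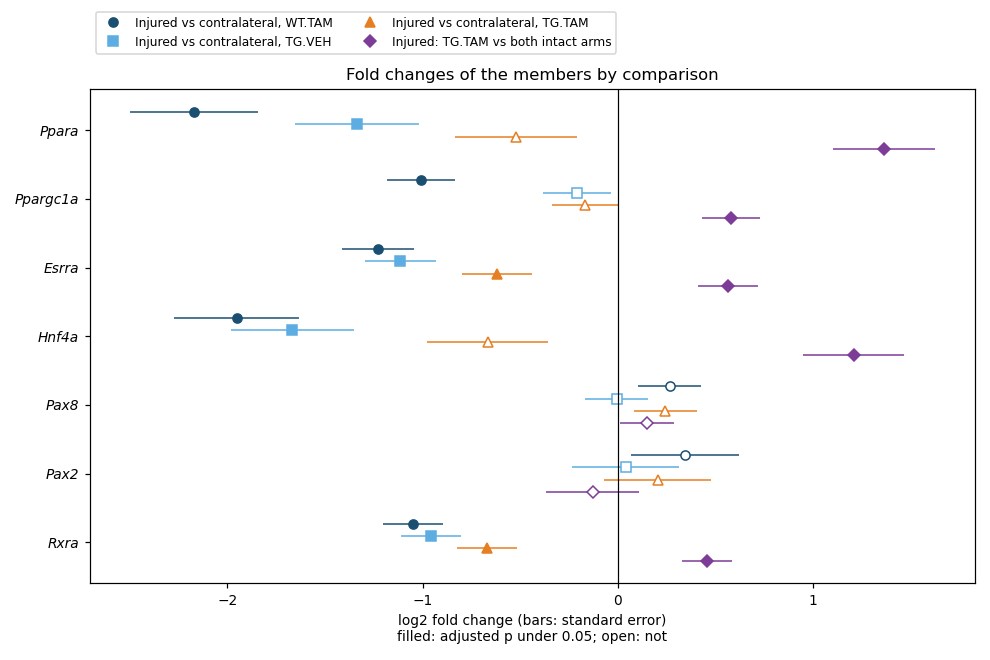
Fitted log2 fold changes (horizontal axis) of the 7 genes for injured against contralateral kidneys in each arm and for injured TG.TAM against the other arms, with bars of 1 standard error; filled points passed an adjusted p of 0.05. For Hnf4a and Ppara the WT.TAM point lies farthest left (-1.95 and -2.17) and the TG.TAM point nearest to 0 of the 3 arms (-0.67 and -0.52).

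Between the 2 arms with intact Ihh, injured TG.VEH kidneys had higher Ppargc1a than injured WT.TAM kidneys (0.72, SE 0.17, adjusted p = 0.0268), the only 1 of 7 in a comparison with 2.22% of genes called. That call was lost without WT.TAM library 1 or 2 or TG.VEH library 2 or 3, with protein-coding transcripts alone (adjusted p = 0.0749), and with all 32 libraries (0.715, adjusted p = 0.662). The interaction of these arms, added after the data were seen, called none of the 7 and 0.210% of all genes, with Ppargc1a at -0.80 (SE 0.25, adjusted p = 0.260).

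Between kidneys without ischaemia none of the 7 genes was called: not in contralateral TG.TAM against the other contralateral kidneys (0.00568% of genes called), in contralateral against nephrectomy kidneys (5.61%), in contralateral against uninjured kidneys (0.426%) or in nephrectomy against uninjured kidneys (0.176%). In contralateral TG.VEH against WT.TAM, edgeR called 0 of all genes, with 2069 at an unadjusted p under 0.05, and DESeq2 called 12. Pax8 differed there by 0.09 (SE 0.16, adjusted p = 0.871), and contralateral TG.VEH kidneys held 124, 84.9, 116 and 88.3 CPM against 97.6, 87.8, 102 and 101 in WT.TAM and 103, 115, 108 and 84.8 in TG.TAM. Against nephrectomy kidneys contralateral kidneys had Pax8 at -0.39 (SE 0.14, adjusted p = 0.123), where the nephrectomy kidneys held 144, 110 and 143 CPM. With protein-coding transcripts alone it was -0.52 (adjusted p = 0.0105). Ppargc1a was called there with all 32 libraries, at -0.75 (adjusted p = 0.0347). That fit includes the heart-profile library labelled nephrectomy, which held 360 CPM of Ppargc1a per library total.

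Against the 2 uninjured libraries (38.2% of genes called), injured kidneys had lower Hnf4a (-1.69, SE 0.30, adjusted p = 0.000292), Ppara (-1.44, SE 0.33, adjusted p = 0.00211), Esrra (-0.96, SE 0.20, adjusted p = 0.000971) and Rxra (-0.80, SE 0.16, adjusted p = 0.000826). Uninjured kidneys held 1303 and 1320 CPM of Hnf4a, above every contralateral library. Ppargc1a at 115 and 135 CPM stood at -0.22 (adjusted p = 0.393) in this comparison, and Pax8 and Pax2 did not pass. Without uninjured library 3, which leaves the library of 0.593 M counts alone, the calls of Ppara, Esrra and Rxra were lost. With all 32 libraries Hnf4a stood at -0.71 (adjusted p = 0.594), and Ppargc1a was called at -0.84 (adjusted p = 0.00406). That fit includes the heart-profile libraries labelled uninjured. Per library total they held Ppargc1a at 184.8 and 175.6 CPM and Hnf4a at 0.450 and 0.237 CPM.

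Each gene was also read by transcript, in a fit where 40.7% of 61232 transcripts were called for injured against contralateral kidneys. Hnf4a-201 and Hnf4a-202, coding transcripts that both start at P1, held 79.65% and 19.91% of Hnf4a counts and fell by 1.43 (SE 0.18, adjusted p = 9.79e-07) and 1.87 (SE 0.36, adjusted p = 0.000187) on the log2 scale. Ppargc1a-203, the leading coding transcript of Ppargc1a with a start at 51553922, held 82.7% of counts, and Ppargc1a-201, annotated as a target of nonsense-mediated decay, held 16.0%. Both fell, by 0.51 (adjusted p = 0.000773) and 0.52 (adjusted p = 0.00867). Rxra-201 (82.9% of counts) fell by 0.96 and Ppara-202 (74.7%) fell by 1.45, and Esrra-201 (91.0%) fell by 1.12.

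Of Pax8 counts 54.0% went to the coding Pax8-201 and 32.7% to Pax8-206, a transcript with a retained intron. Pax8-201 stood at -0.06 (adjusted p = 0.673), with -0.44 (adjusted p = 0.0459) in the TG.VEH arm, where 27.0% of transcripts were called, and Pax8-206 at 0.31 (adjusted p = 0.180), while the minor coding Pax8-203 (2.48% of counts) rose by 0.90 (SE 0.25, adjusted p = 0.00521). Pax2 counts were split over Pax2-203 (58.2%), Pax2-202 (26.9%) and Pax2-201 (14.9%), none of which was called. These shares rest on estimated counts of overlapping transcripts.

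Lists of related genes were read beside the 7. They are described by counts, since these lists and the genes were chosen with results of these data known. Of 24 tested genes known as targets of ERR alpha and PGC-1 alpha, 24 fell in injured against contralateral kidneys, with a median of -1.08 against 0.05 over all genes, of which 34.7% were called lower and 39.0% higher. Among them Sdhb, a subunit of succinate dehydrogenase, fell by 1.503 (SE 0.14), and Cox4i1 of cytochrome c oxidase and Uqcrfs1 of complex III each fell by 1.32 (SE 0.14). Of 26 tested PPAR alpha targets, 23 fell and 0 rose, with a median of -1.14: the acyl-CoA thiolase Acaa1b fell by 1.93 (SE 0.22), the fatty acid importer Slc27a2 by 1.67 (SE 0.20) and the fatty acid hydroxylase Cyp4a14 by 2.88 (SE 0.62). Of 22 proximal tubule genes linked to HNF4 alpha, 22 fell, with a median of -1.46. They included Apom, an apolipoprotein (fell by 2.36, SE 0.29), the glucuronosyltransferase Ugt2b38 (fell by 2.03, SE 0.22) and the glucose-6-phosphatase G6pc (fell by 1.88, SE 0.27). Of these 22 genes 5 are also among the 12 proximal tubule markers, and of the PPAR alpha list 1 is.

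The regulators around the 7 moved in both directions. Of 9 relatives, 6 fell and 2 rose: Hnf4g, the sister of Hnf4a, fell by 1.20 (SE 0.16), Esrrb fell by 1.08 (SE 0.14) and the PGC-1 related coactivator Pprc1 rose by 1.05 (SE 0.09). Of 16 coactivators, corepressors and kinases, 6 rose and 5 fell, shares close to the 39.0% and 34.7% over all genes. The mitochondrial deacetylase Sirt3 fell by 1.34 (SE 0.11) and the AMP kinase subunit Prkaa2 fell by 1.09 (SE 0.14). Of 10 mitochondrial biogenesis factors 6 fell, among them the helicase Twnk at -0.79 and the transcription factors Tfb2m at -0.77 and Tfb1m at -0.74, and 2 rose. With library totals the coactivator list held 13 higher and 2 lower calls, and the relatives 3 and 3.

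Among 18 other tubule transcription factors 8 fell and 5 rose, beside 34.7% and 39.0% of all genes. The epithelial factor Ehf rose by 1.65 (SE 0.18), while the homeobox factors Lhx1 and Emx1 fell by 1.64 (SE 0.20) and 1.68 (SE 0.17). Of 13 nephron development factors tested among 16 listed, 9 rose and 3 fell, with a median of 1.43 against 0.05 over all genes. The injury-linked factor Sox9 rose by 3.21 (SE 0.22), Sox11 by 2.07 (SE 0.26) and the ligand gene Wnt4, which starts nephron formation in the embryo, by 1.48 (SE 0.22). Pax8 and Pax2 themselves, which belong to the same developmental programme, were not among the called genes with TMM factors. Pax8 was called higher with RLE factors, with library totals and with DESeq2, and Pax2 with library totals.

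In injured kidneys of TG.TAM against the other arms, the target lists stood higher. Of the ERR alpha and PGC-1 alpha targets 23 of 24 were higher (median 0.78 against -0.01 over all genes, of which 20.5% were called higher), among them the fumarase Fh1 at 0.96 (SE 0.17) and the ATP synthase subunit Atp5b at 0.87 (SE 0.19). Of the PPAR alpha targets 17 of 26 were higher (median 0.66), with Slc27a2 at 1.49, the medium-chain dehydrogenase Acadm at 1.27 and Cyp4a10 at 1.26. Of the genes linked to HNF4 alpha 20 of 22 were higher (median 1.11), with the gluconeogenic Pck1 at 2.27 (SE 0.32), Apom at 1.87 (SE 0.41) and the urate transporter Slc17a3 at 1.43 (SE 0.32). Without TG.TAM library 3 the counts were 22, 11 and 15. No gene of these 3 lists was lower in either setting.

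Of the regulators, 3 of 9 relatives were higher in injured TG.TAM kidneys (Esrrb at 1.005, Esrrg at 0.73, Ppargc1b at 0.61), and so were 7 of 16 coactivators and kinases (Prkaa2 at 0.92, the lipin Lpin1 at 0.79, Sirt3 at 0.69). Over all genes 20.5% were higher and 16.6% lower. The mitochondrial biogenesis factors gave 5 of 10, with Twnk at 0.53, Tfb2m at 0.47 and the mitochondrial RNA polymerase Polrmt at 0.43. Other tubule factors gave 6 of 18, among them Lhx1 at 1.28 and the bile acid receptor Nr1h4 at 1.11. Among nephron development factors 3 were lower, Wnt4 at -0.83, Wt1 at -0.81 and Sox4 at -0.72, and 2 were higher. All 12 proximal tubule markers were higher and all 8 fibroblast and mural markers lower in the same comparison, so the list counts moved with those of cell-type markers, and their part was not tested.

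In the interaction the counts of the 3 target lists were lower. Of the ERR alpha and PGC-1 alpha targets 22 of 24 were called higher (median 0.86 against 0.00 over all genes, of which 10.4% were called higher and 5.74% lower), with Cox5b and Cox6c at 1.31 each. The PPAR alpha list gave 11 of 26, with Slc27a2 at 1.56, Acadm at 1.42 and Ehhadh at 1.25, and the list linked to HNF4 alpha 7 of 22, with Pck1 at 2.10, Apom at 1.98 and Fbp1 at 1.55. Without TG.TAM library 3 these counts were 4, 3 and 2, with medians of 0.73, 0.78 and 0.84, and with all 32 libraries they were 0, 1 and 0. Among regulators the interaction called Esrrb and Esrrg (1.004 and 0.63), Lpin1 and Ncor1 (0.82 and 0.46), Tfb2m (0.51), and 6 of 18 tubule factors, among them Lhx1 and Irx1 (1.37 and 1.29). Wt1 and Sox4 were lower (-1.20 and -0.78).

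**Figure D3:**
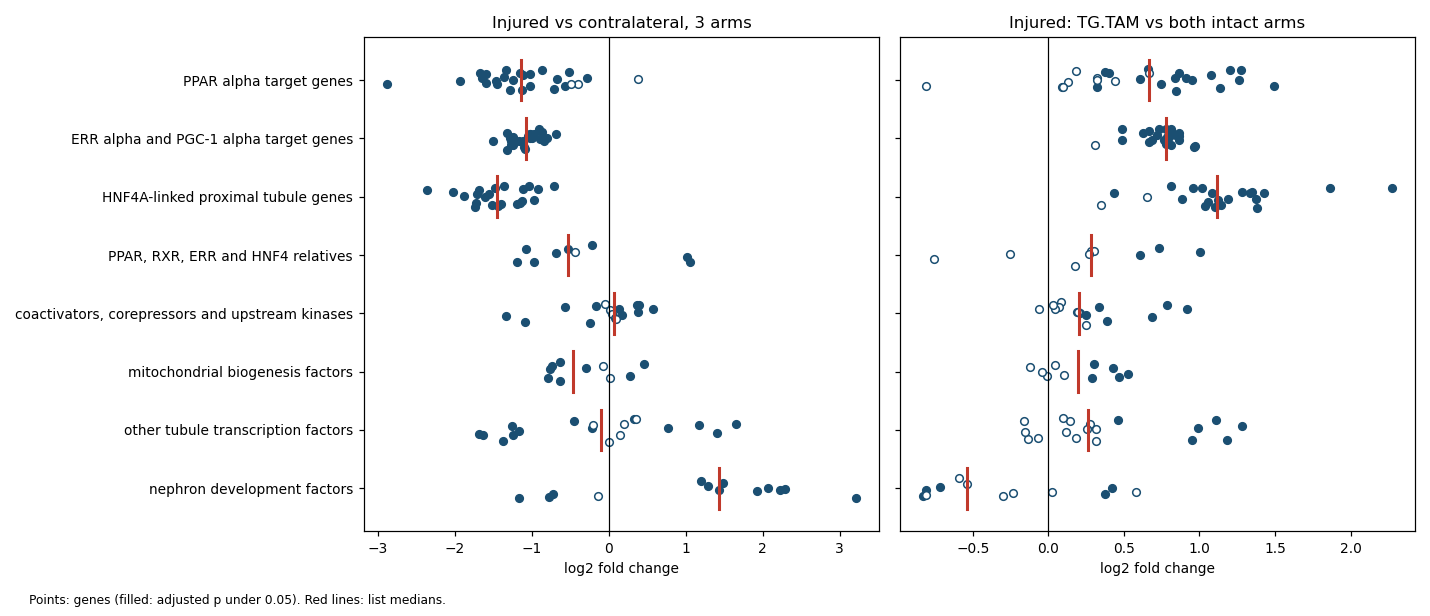
Fitted log2 fold changes (horizontal axes) of the tested genes in the 8 lists for injured against contralateral kidneys (left) and injured TG.TAM against the other arms (right); points are genes, filled where the adjusted p was under 0.05, and red lines are list medians. The medians of the 3 target lists lie left of 0 on the left (-1.08 to -1.46) and right of 0 on the right (0.66 to 1.11).

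The levels of Hnf4a, Ppara, Esrra and Rxra followed each other over the 29 libraries more closely than Ppargc1a followed them. Pearson's r of log2 CPM was 0.96 between Ppara and Hnf4a, 0.96 between Esrra and Rxra, 0.95 between Hnf4a and Rxra and 0.94 between Esrra and Hnf4a, and 0.91 between Ppara and each of Esrra and Rxra. It was 0.81, 0.77, 0.75 and 0.74 between Ppargc1a and Ppara, Esrra, Hnf4a and Rxra, 0.59 between Pax8 and Pax2 and 0.09 between Hnf4a and Pax8. These values describe libraries that share groups, injury and cell makeup. Among 13841 genes at a mean log2 CPM of 1 or more, those most like Hnf4a were Glyctk (r = 0.99), Mut (0.99) and Tkfc (0.99), and those most like Ppara were Por (0.98), Trak2 (0.97) and Osbpl6 (0.97). Esrra was most like Tmem63b, Coq9 and Got2 (0.98 each), and Rxra most like Sfxn5 (0.99) and Acads (0.98). Ppargc1a was nearest to Shroom4 (0.95), Ank3 (0.94) and Agap1 (0.93). The nearest to Pax2 were AI661453 (0.89), Myh10 (0.86) and Elf5 (0.86), and those nearest to Pax8 were less alike: Phactr1 (0.74), Ahdc1 (0.68) and Exph5 (0.67).

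The single-cell libraries show in which cells the 7 genes were counted. The injured kidney gave 3063 cells with a median of 2014 transcript tags (UMIs), and the uninjured kidney 1313 cells with a median of 2391; the 2 libraries shared 8 cell barcodes. There was 1 library per condition, so no difference between them was tested, and intervals are 95% intervals for counting error only. Clusters were named from marker lists with a rule that was revised after the clusters and the counts of the 7 genes had been seen. Proximal tubule-like cells made up 921 cells or 30.1% after injury (exact binomial interval 28.45% to 31.73%) and 1046 cells or 79.7% without injury. These shares depend on the naming rule: the first rule, by fold against the rest of the library, gave 921 of 3063 and 575 of 1313 cells, and the second, against all other cells of both libraries, 629 and 691. Distal nephron-like cells (loop of Henle, principal and intercalated) made up 14.2% and 10.4%, leukocyte-like cells 38.8% and 3.05%, and stroma-like cells 10.97% and 4.19%. Clusters that stayed without a name held 6.01% and 2.74%. After injury they included 68 cells led by H2-Aa, Plbd1, Irf8, Lsp1 and H2-Eb1, which the leukocyte-like share leaves out. Shares can be set by digestion and by the live-cell gate. Mitochondrial UMIs, a sign of cell quality, had a median of 5.97% after injury and 23.6% without, and 21.0% and 25.2% in the proximal cells.

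Hnf4a was counted mostly in proximal cells. There it stood at 152 CPM of summed UMIs (interval 136.5 to 168.2, 363 UMIs) after injury and at 175 (161.0 to 189.7, 582 UMIs) without injury. Over all cells of each library it stood at 49.5 and 145 CPM. Of proximal cells 29.5% and 37.4% had a Hnf4a UMI, at median depths of 2030 and 2503 UMIs, and 19.4% and 22.9% after thinning to 1500 UMIs per cell, for which 980 and 320 cells were too shallow. In leukocyte-like cells, which should lack it, 7 of 1188 (0.589%) had one at a median depth of 1774. In distal nephron-like cells Hnf4a was at 7.83 and 2.27 CPM.

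Ppara was counted in few cells, at 15.9 CPM (11.2 to 21.8) in proximal cells after injury and 10.2 (7.08 to 14.3) without. It had no UMI in 1188 leukocyte-like and 336 stroma-like cells after injury, where the 3-count limits are 1.056 and 4.97 CPM. Rxra stood at 20.1 CPM (14.8 to 26.6) and 24.6 (19.6 to 30.6) in proximal cells, and Esrra at 54.3 (45.4 to 64.5) and 58.9 (50.9 to 67.8). Esrra was the most widely counted, at 54.0 and 68.1 CPM in distal nephron-like cells and at 18.3 CPM in leukocyte-like cells after injury. For Hnf4a, Ppara, Rxra and Esrra the proximal intervals of the 2 libraries overlapped, as did those of Ppargc1a and Pax8 given below.

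Ppargc1a had another distribution. In distal nephron-like cells it stood at 200 CPM (176.6 to 226.5) after injury and 204 (164.4 to 251.3) without, against 44.3 (36.3 to 53.6) and 38.8 (32.4 to 46.1) in proximal cells. Among distal clusters after injury it stood at 232 CPM in thick ascending limb-like, 176 in intercalated-like and 171 in principal-like cells, and without injury at 191, 143 and 330. A cluster of 219 cells like the S3 segment, the last part of the proximal tubule, held 3 Ppargc1a UMIs or 4.95 CPM (1.02 to 14.5), while the other 702 proximal cells stood at 57.6 (47.0 to 69.9). In the same S3-like cluster Hnf4a stood at 112 CPM and in the other proximal cells at 165. The other 702 cells included a cluster of 88 led by Kap and Slc7a13, which is on the S3 marker list. Without injury, clusters of 170, 146 and 74 cells also had Slc7a13 among their leading genes and were not named S3-like. The values therefore describe 1 cluster of 1 library and do not compare S3 with the other segments. Of 921 injured proximal cells 272 had a Hnf4a UMI, 91 a Ppargc1a UMI and 42 both.

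Pax8 and Pax2 were counted in proximal and in distal nephron-like cells. No podocyte-like or distal convoluted tubule-like class was named in either library. Pax8 stood at 34.3 CPM (27.3 to 42.5) and 32.2 (26.4 to 38.9) in proximal cells, and at 103 (85.8 to 121.7) and 38.6 (22.5 to 61.8) in distal nephron-like cells. Pax2 stood at 7.11 and 3.91 CPM in proximal and at 56.4 and 31.8 in distal nephron-like cells. Few proximal cells had a Pax2 UMI, 16 of 921 after injury and 13 of 1046 without. Among stroma-like cells 2 of 336 and 2 of 55 had a Pax2 UMI, and the same numbers had a Pax8 UMI. Of 1188 leukocyte-like cells after injury, 3 had a Pax8 UMI and 2 a Pax2 UMI. The highest levels of both lay in clusters that the marker lists did not name. A cluster of 64 cells after injury, led by Apela, Fst, Epcam, Cryab and Nupr1, held Pax8 at 520 CPM (415.7 to 643.6) in 71.9% of its cells and Pax2 at 171 CPM in 34.4%. A cluster of 36 cells without injury, led by Apela, Aqp1, Bst1, Cryab and Fst, held Pax8 at 373 CPM (262.6 to 514.1) in 58.3% and Pax2 at 222 CPM (139.0 to 335.8) in 41.7%. A further cluster of 52 cells after injury, led by Tagln, Map1b, Akap12, Acta2 and Sparc, held Pax8 at 260 and Pax2 at 96.9 CPM. These 3 clusters were singled out after their values were seen.

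**Figure D4:**
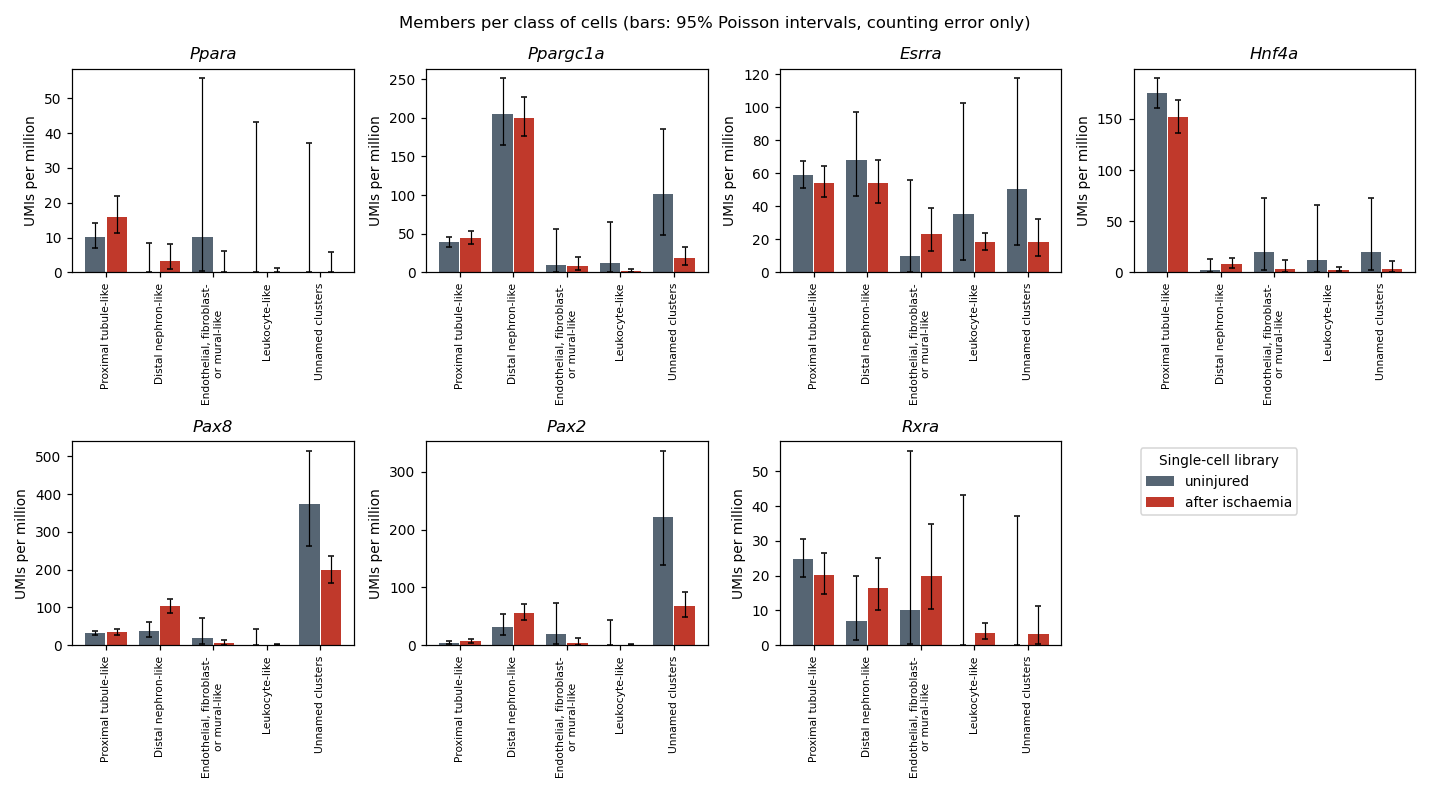
CPM of summed UMIs (vertical axes) of the 7 genes in each class of cells (horizontal axes) of the uninjured and the injured library; error bars are 95% Poisson intervals for counting error. Hnf4a is highest in proximal cells (175 CPM uninjured and 152 injured), Ppargc1a in distal nephron-like cells (204 and 200), and Pax8 and Pax2 in the clusters without a name. After injury the clusters without a name are pooled and include 68 cells led by H2-Aa.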

How the data were processed

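Bulk values are expected counts per transcript, estimated by the authors; the submitters' processing notes name Salmon 1.4, Cell Ranger and STAR and the builds GRCm38 and mm10. Single-cell values are UMI counts per gene and barcode, deposited by the authors from 10x libraries, per the labels. Of 105833 transcripts 105281 were found in GENCODE M21, and the other 552 held 0.185% of counts. Counts were summed to 33714 genes and rounded. The 29 kidney-profile libraries were fitted with edgeR 4.0.16 in R 4.3.3 (TMM, filterByExpr, 1 coefficient per group, quasi-likelihood F test, Benjamini-Hochberg threshold 0.05 over all tested genes) in 15 comparisons. Standard errors were derived from the F statistic. Column numbers were not treated as pairs. Cells were clustered with scanpy 1.11.5 (resolution 1) per library without a filter, Scrublet marked 0.163% and 0.228% of cells and so did not serve as a doublet filter, and clusters were named from marker lists. The naming rule took 4 versions, each revised after clusters and values were seen: fold against the rest of the library, against both libraries, against the median over clusters, and the last with a marker among the 10 leading genes. From each list the text names the 3 called genes with the largest fold change at a mean log2 CPM of 1 or more; a few genes that this rule or the correlations named are not reported here. Alternatives were DESeq2 1.42.0, RLE factors, library totals, filters, a column block, all 32 libraries and each library left out. Genes, lists and tests were chosen with earlier results of these data known; library totals, thinning, naming versions, list counts by setting and the WT.TAM minus TG.VEH interaction were added after the data were seen. Scripts were tested on simulated data.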

Additional observations from a re-analysis of the deposited data

Results flagged for a closer look

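The injury response of TG.TAM differed from that of the other arms, by the interaction test, for 2 of the 7 genes and for genes named from the lists, in a contrast where 16.1% of all genes were called. Ppara differed by 1.23 and Hnf4a by 1.14 on the log2 scale, calls that were lost in 9 and 20 of the other settings. With 1 library left out at a time, Ppara was called in 18 of 24 fits and Hnf4a in 9 of 24. Among relatives and coactivators Esrrb differed by 1.004, Esrrg by 0.63, Lpin1 by 0.82, Ncor1 by 0.46 and the mitochondrial factor Tfb2m by 0.51. Among tubule and development factors Lhx1 differed by 1.37, Irx1 by 1.29, Nr1h4 by 1.23, Emx1 by 1.03, Wt1 by -1.20 and Sox4 by -0.78. Among PPAR alpha targets Slc27a2 differed by 1.56, Acadm by 1.42 and Ehhadh by 1.25. Among ERR alpha and PGC-1 alpha targets Cox5b and Cox6c differed by 1.31 each, Atp5b by 1.02, Cox4i1 by 1.01, Fh1 by 0.9999 and Uqcrfs1 by 0.94. Among genes linked to HNF4 alpha Pck1 differed by 2.10, Apom by 1.98, Fbp1 by 1.55 and Slc17a3 by 1.44.

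In 1 of 42 gene and group pairs with 4 libraries a single library stood apart by Dixon's test: Pax2 in library 3 of injured WT.TAM, at 63.6 CPM against 31.4 to 33.5 in the others. Chance alone gives about 1 in 20.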

How the results depend on the processing

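Of 2142 values of the 7 genes under other settings, 2059 kept their side of the threshold, 66 lost the call and 16 gained one. A further 1 reversed: Pax8 in the TG.VEH arm went from -0.01 to 0.43 with library totals (adjusted p = 0.0353). A change of direction was counted only where a fit was called. Uncalled values could change sign: Pax2 in the TG.VEH arm ran from -0.23 to 0.36 with 1 library left out. Genes named from the lists lost the call in 1 of 768 values for injured against contralateral kidneys, 29 of 456 for injured TG.TAM against the other arms and 104 of 608 for the interaction, and 0 reversed. The causes were not tested.

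Numbers of called genes moved as follows. With all 32 libraries they were 7050 for the WT.TAM arm (10701 without the 3 heart-profile libraries), 2360 for TG.TAM (5955), 167 for the interaction (2836), 1657 for injured TG.TAM against the other arms (6539), 2089 against WT.TAM (6804), 0 against TG.VEH by edgeR (2883; 2770 at an unadjusted p under 0.05), 0 for contralateral TG.TAM (1; 722 unadjusted), 56 for injured TG.VEH against WT.TAM (391), 1898 for contralateral against nephrectomy (989), 6007 and 54 for contralateral and nephrectomy against uninjured kidneys (75 and 31), and 2 for the interaction of WT.TAM and TG.VEH (37). With DESeq2 contralateral TG.TAM gave 86, injured TG.VEH against WT.TAM 674, contralateral TG.VEH against WT.TAM 12, nephrectomy against uninjured 114 and the interaction of those arms 158. Contralateral TG.TAM gave 7 with RLE factors, 9 with library totals, 5 with protein-coding transcripts and 0 in edgeR with the injury arms alone. Library totals gave 11 for nephrectomy against uninjured and 23 for the interaction of WT.TAM and TG.VEH, as did the injury arms alone (23).

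Libraries with the same column number correlated from -0.206 to 0.184 in their deviations, with 5 of 12 best matched by their own number, so the numbers were not taken as pairs. With the number as a replicate block the interaction called 1750 genes and that of WT.TAM and TG.VEH 13, with Ppara at 1.25 (adjusted p = 0.0662) and Hnf4a at 1.21 (adjusted p = 0.0699) in the first, neither called.

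Leaving out 1 library at a time gave 3280 to 7025 calls in the TG.TAM arm, 848 to 4847 for the interaction, 3527 to 7591 for injured TG.TAM against the other arms, 180 to 5116 against TG.VEH, 4557 to 7669 against WT.TAM, 0 to 39 for contralateral TG.TAM, 155 to 578 for injured TG.VEH against WT.TAM, 315 to 1692 for contralateral against nephrectomy, 15 to 267, 2 to 76 and 1297 to 7120 for contralateral, nephrectomy and injured against uninjured kidneys, and 11 to 57 for the interaction of WT.TAM and TG.VEH. Library 3 of injured TG.TAM gave the lowest interaction count; library 3 of the uninjured group the lowest of injured against uninjured.

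In proximal cells under 20% mitochondrial UMIs, CPM after injury was 23.31 for Ppara, 63.9 for Ppargc1a and 68.41 for Pax8; without injury it was 18.98, 56.93 and 57.83, with Hnf4a at 197.9 and Rxra at 16.27. Pax8 after injury was 43.22 at clustering resolution 2, 43.82 without called doublets and 23.51 with naming against both libraries. Without injury that naming gave Ppargc1a 46.92, naming against the rest of the library gave Ppargc1a 48.58 and Pax8 42.97, and thinning gave Pax2 1.65. On the TMM scale 1 neighbour pair in the orders of levels did not overlap. Depth limits the uninjured contrasts, with 2 libraries, and the single-cell values of Ppara, Pax2 and Rxra.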

Other observations

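The 3 libraries with a heart profile took part only in the fits with all 32 libraries. Per library total they held Ppargc1a at 184.8 and 175.6 CPM in the libraries labelled uninjured and at 360 CPM in the library labelled nephrectomy. Ppara was at 74.8, 75.3 and 79.1 CPM, Esrra at 94.1, 111 and 100.4 CPM and Rxra at 90.3, 102 and 81.7 CPM in the same order. Hnf4a was at 0.450, 0.237 and 0.732 CPM, Pax8 at 0.0600, 0.0593 and 0.0366 CPM, and Pax2 had no counts in any of the 3.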
